A study of Rattus norvegicus with 65 samples.

Results

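Epcam encodes an adhesion protein of epithelial cells, and 11 of 65 rat mammary tumors gave an Epcam signal below 8 on the log2 scale of scaled array intensity. These 11 tumors fall into a pair of groups. Group A held the tumors of any transplant series whose primary tumor was already below 8, which was series 42 alone, with its primary tumor and transplants 1 to 5 (6 arrays). Group B held the transplants below 8 in series whose primary tumor was at 8 or above, which were transplants 4 and 5 of series 32 and transplants 3, 4 and 5 of series 34 (5 arrays). Group A was therefore low from the start, and group B became low during passage. The other 54 arrays, called Epcam-high here, included 7 earlier tumors of series 32 and 34 and 47 tumors of 8 other series.

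All groups come from carcinogen-induced rat mammary tumors that were carried through syngeneic hosts for up to 5 transplant generations, with 1 Affymetrix array per tumor and 11 series in all. Which tumors invaded or spread is not recorded tumor by tumor in the labels, so the groups differ by series and generation as far as the labels say. Each value comes from bulk RNA of frozen tumor tissue, in which fewer cells of a type and less RNA per cell cannot be told apart. Group A is 1 line of tumors descended from each other, so what belongs to series 42 and what belongs to low Epcam from the start cannot be told apart.

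Epcam, E-cadherin (Cdh1), claudins and keratins hold epithelial cells together and are switched off in an epithelial to mesenchymal transition. Transcription factors of the Snail, Zeb and Twist families are known to drive that switch, and Snail and Zeb proteins bind a short E-box sequence in epithelial promoters. Mesenchymal cells, in contrast, make vimentin, fibronectin and fibrillar collagens, and tumors can hold them either as changed tumor cells or as host stroma.

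Promoters of 4 genes on which the results turn are shown here, to set the letters beside the transcript levels. They were chosen after the values were seen: Epcam defined the groups, Cldn7 and Krt8 were low in both, and Cd9 was low in group A alone. Each is the 250 bases before the gene's start in RefSeq (GRCr8), written on the strand of the gene, and capitals mark every CAGGTG or its reverse complement CACCTG, the E-box form searched on both strands. Epcam lies at chr6:12649679-12649928 (minus strand), Cldn7 at chr10:55188420-55188669 (plus), Krt8 at chr7:135010340-135010589 (minus) and Cd9 at chr4:159975359-159975608 (minus).
Epcam: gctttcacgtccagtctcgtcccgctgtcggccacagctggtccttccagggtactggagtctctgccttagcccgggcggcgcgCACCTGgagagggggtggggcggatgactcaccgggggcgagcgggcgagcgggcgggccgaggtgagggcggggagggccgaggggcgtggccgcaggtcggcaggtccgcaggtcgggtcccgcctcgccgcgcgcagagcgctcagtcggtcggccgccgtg
Cldn7: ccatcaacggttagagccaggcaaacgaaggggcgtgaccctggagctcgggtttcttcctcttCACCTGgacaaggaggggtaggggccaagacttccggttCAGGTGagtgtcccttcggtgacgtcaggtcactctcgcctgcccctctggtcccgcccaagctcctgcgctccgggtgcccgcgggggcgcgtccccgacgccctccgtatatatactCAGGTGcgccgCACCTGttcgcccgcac
Krt8: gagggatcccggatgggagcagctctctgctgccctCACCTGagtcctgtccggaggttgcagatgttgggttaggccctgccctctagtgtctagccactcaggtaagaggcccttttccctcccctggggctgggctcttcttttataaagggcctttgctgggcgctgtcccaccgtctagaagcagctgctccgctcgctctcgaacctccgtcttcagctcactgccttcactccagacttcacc
Cd9: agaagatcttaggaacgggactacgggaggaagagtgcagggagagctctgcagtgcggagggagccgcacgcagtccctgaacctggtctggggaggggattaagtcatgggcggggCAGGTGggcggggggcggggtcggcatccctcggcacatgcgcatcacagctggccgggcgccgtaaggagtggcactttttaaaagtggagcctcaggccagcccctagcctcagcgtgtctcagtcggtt
The Epcam promoter held 1 match, starting at position -165 from the gene's start, Krt8 held 1 at -214 and Cd9 held 1 at -132. Cldn7, a claudin of epithelial tight junctions, held 4, at -186, -147, -28 and -17. Of all 33469 promoters in the table, 5323 (15.9%) held at least 1 match in the same window, and of 7109 promoters of genes tested here, 1056 (14.9%) did. Among the 51 genes that were low in every array of both groups (Epcam and the 50 described below), 36 had a promoter in the table and 20 of these (55.6%) held a match. All 4 promoters shown held a match, but Krt18, Lcn2 and S100a14, also among the leading low genes, held 0. Krt5, Lsr and Gpx2 of that set held at least 1. The 51 genes were picked by their levels in these same arrays, and Cdh1 was among those without a promoter. No test compared these shares. A match describes the letters in this window and shows no binding.

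Epcam itself was described and not tested, because it set the groups. Before any floor was set, series 42 lay between 3.63 and 6.00 (median 5.07, 6 arrays). In series 34 the log2 level was 12.01 in the primary tumor, 11.74 and 11.62 in the first transplants, then 6.52, 5.83 and 5.25 at transplants 3, 4 and 5. Series 32 passed through 11.91, 11.62 and 11.56 to 9.17, 7.70 and 5.58. Series 34 therefore went from the level of a typical epithelial tumor to a low one between 1 transplant and the next, and series 32 came down over 3 transplants. The member nearest to the threshold was transplant 4 of series 32 (7.70), and the nearest tumor outside it was transplant 3 of the same series (9.17). All 54 Epcam-high arrays lay between 9.17 and 12.01. Epcam was read by 1 probe set.

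**Figure D1:**
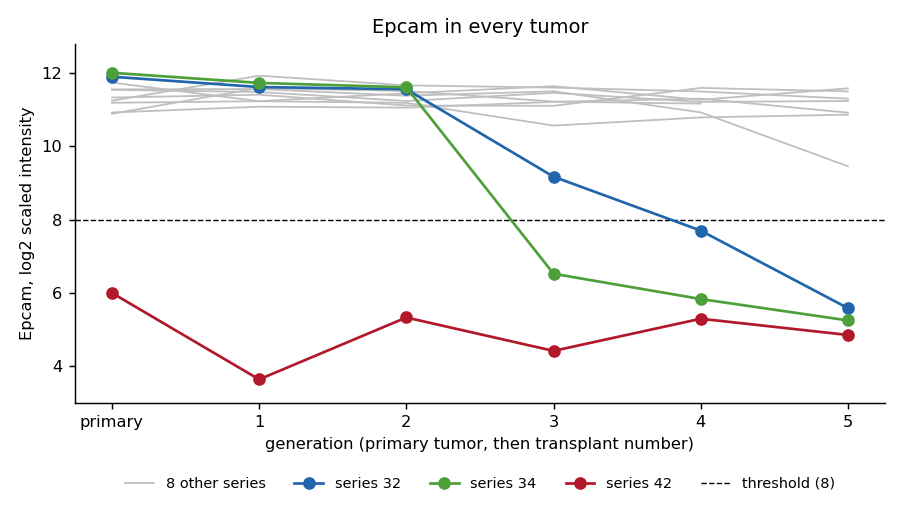
Epcam signal (log2 scaled intensity, no floor) by generation in all 65 tumors, with 1 line per series and the threshold of 8 dashed. Series 42 lies below the threshold from the primary tumor on (3.63 to 6.00), series 34 crosses it at transplant 3 and series 32 at transplant 4, while the other 8 series stay above it.

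Arrays were scaled to 1 median, and 1 member stood apart before scaling: transplant 5 of series 32 had a median intensity of 96.1, against 143 to 157 in the other members of group B, 143 to 147 in group A and 152 to 176 in the Epcam-high arrays. It also had the highest summed level of T and NK cell markers in group B (9056, against up to 2534 in its other arrays and 2273 to 2714 in group A). Many calls between A and B depended on series 32. A floor at 5.31 was set under all log2 values, and values at the floor carry no order. Where some arrays of the lower group are at the floor, a difference or fold depends on where the floor lies and gives no rank among genes. The 6 and 5 arrays come from 3 lines, and tumors of a line descend from each other, so the number of lines limits the precision.

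The epithelial program was low in both groups. Of 8498 genes tested besides Epcam, 50 (0.588%) lay below all 54 Epcam-high arrays in every array of groups A and B, and 9 (0.106%) lay above all of them. Taken alone, group A lay below all Epcam-high arrays for 369 genes (4.34%) and above for 454 (5.34%), and group B for 63 (0.741%) and 33 (0.388%). The Epcam-high arrays held 7 earlier tumors of the lines of B and 0 of the line of A. Counts of A alone and B alone therefore do not show which group was more distinct. All these counts follow from how the arrays were chosen and are a description. The 10 with the widest gap were Krt18, Cldn4, Krt8, Lcn2, S100a14, Krt5, Lsr, Cldn7, Cdh1 and Gpx2. Krt8 and Krt18 form the keratin filaments of luminal cells, Krt5 that of basal cells, Lsr builds tricellular junctions, and Lcn2 is a secreted protein of mammary epithelium and neutrophils.

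Cdh1 lay between 5.31 and 5.51 in group A (median 5.31). In group B it was 6.86 and 5.68 at transplants 4 and 5 of series 32 and at the floor in all 3 arrays of series 34, while Epcam-high arrays had 7.85 to 11.03. Krt8 lay between 5.31 and 6.56 in group A (median 5.63), and the group B values of 5.44, 5.31, 5.42, 5.31 and 6.16 fell inside that range. Epcam-high tumors had Krt8 at 8.21 to 12.34. Krt18 and Cldn4 were at the floor in all 6 arrays of group A and in 4 and 5 of the 5 arrays of group B, and Cldn4 was at 7.02 or above in every Epcam-high array. The low set also held Krt15, Krt19, the desmosome genes Dsp, Perp and Pkp2, the tight junction genes Ocln and F11r, the membrane protease St14, the trafficking gene Rab25, Cd24 and Fxyd3.

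The 9 genes above all Epcam-high arrays in both groups were Fads3, Pfn1, Arhgap10, Ywhaz, Glud1, Bcar1, Arpc2, S100a4 and Tmem192. Pfn1 and Arpc2 act in actin assembly, Bcar1 is a scaffold of focal adhesions, and S100a4 is a calcium-binding protein widely used as a mesenchymal marker. S100a4 lay between 12.22 and 12.76 in group A (median 12.55) and was 12.23, 12.25, 12.77, 12.88 and 13.01 in group B, against 6.15 to 12.21 in the Epcam-high arrays. The margin of S100a4 was small, since the highest Epcam-high tumor lay just under the lowest member. Of the 59 shared genes, 0 were called between groups A and B, where the share over all genes was 16.4%. Choosing genes this way puts 1 bound on their levels in both groups, and some, such as Cldn4, were at the floor in both. Within that bound levels could still differ, as for Cd24, which averaged 6.82 in A and 7.81 in B (limma adjusted p = 0.0971).

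**Figure D2:**
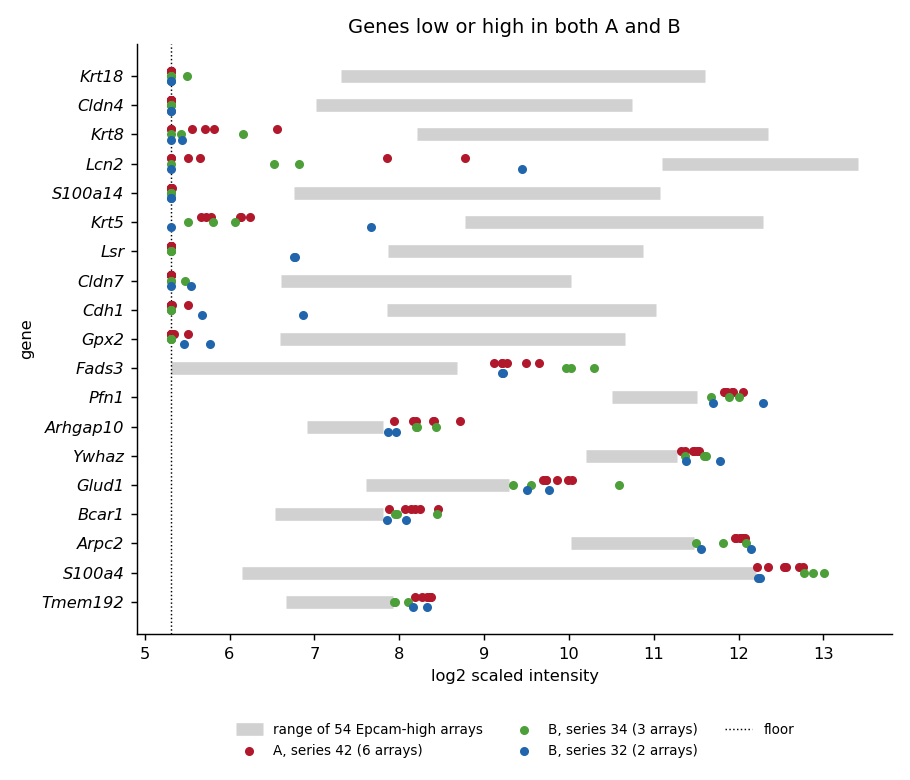
Log2 scaled intensity of the 10 leading genes below, and the 9 genes above, all Epcam-high arrays in both groups. Points are single arrays, grey bars span the 54 Epcam-high arrays, and the dotted line is the floor at 5.31. Krt18 and Cldn4 sit at or next to the floor in both groups, and Lcn2 spreads most within them.

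Outside this shared core the groups differed widely. Between A and B, 1392 of 8498 genes (16.4%) were called by limma at a Benjamini-Hochberg adjusted p below 0.05, with series as a random block. Of these, 728 (8.57% of genes tested) were higher in group A and 664 (7.81%) higher in group B. At least 2-fold differences made up 592 calls (6.97%), 240 of them (2.82%) higher in A and 352 (4.14%) higher in B. For 1454 genes (17.1%), the arrays of the groups did not overlap, 736 (8.66%) with A above B and 718 (8.45%) with B above A. The count depended on series 32: 629 genes were called without it and 2002 without series 34. The p-values rest on the spread among arrays and among the 11 series, and 1 series stands for group A.

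The genes highest in group A relative to B, by the rule for named genes, were Gpr15lg, Met, Cdkn2a, Des, Bex1, Asns, Armcx2, Cd200, Gnai1 and Itga7. Met, the receptor for hepatocyte growth factor, lay between 11.34 and 11.95 in group A (median 11.63). In group B it was 5.34 and 6.41 in series 32 and 6.55, 6.41 and 7.0 in series 34, so the groups were far apart. The difference was 5.40 ± 0.51 (SE), or 42.2-fold (limma adjusted p = 1.39e-12). Its ligand gene Hgf was near the floor in both groups, at 5.31 to 6.01 in A and 5.31 to 6.26 in B.

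Gpr15lg, a secreted ligand of the lymphocyte receptor GPR15, lay between 11.47 and 12.15 in group A (median 11.91). Group B had 5.31, 5.31, 5.85, 5.93 and 5.93, with 2 of its 5 arrays at the floor, and Gpr15lg was higher in A (limma adjusted p = 8.58e-06). Some Epcam-high tumors reached 11.58, so a high Gpr15lg level was not seen in series 42 alone. Cdkn2a, a tumor suppressor that restrains the cell cycle, lay between 10.33 and 11.10 in group A (median 10.77) and was at the floor in all 5 arrays of B, which makes it at least 42.6-fold higher in A (limma adjusted p = 0.000863, and 0.0829 with 1 value per series). Its neighbour Cdkn2b, another inhibitor of the cell cycle, was named after its values were seen. It averaged 8.14 ± 0.12 (SD, n = 6 arrays) in A and 5.92 ± 0.41 (SD, n = 5 arrays) in B, and was 4.7-fold higher in A (limma adjusted p = 1.09e-10).

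Des encodes desmin, the intermediate filament of muscle cells, and lay between 11.09 and 11.83 in group A (median 11.56). Group B had 6.94, 6.97, 7.14, 6.63 and 8.96, with transplant 5 of series 34 the highest, and the difference was 4.17 ± 0.46 (18.1-fold, limma adjusted p = 1.56e-10). Itga7, an integrin subunit of muscle that binds laminin, was higher in A by 3.62 ± 0.45 (12.3-fold, limma adjusted p = 7.36e-09). With the median of its probe sets in place of the brightest, Itga7 was not among the genes called. The remaining genes of this set were higher in A by 3.62 (Gnai1, an inhibitory G protein subunit) to 4.04 (Bex1, and Asns, which makes asparagine), with limma adjusted p of 1.21e-05 or less. Cd200, a membrane protein that restrains myeloid cells, was higher by 3.63, and Armcx2 was higher with 3 of the 5 arrays of B at the floor. Bex1 in group B (5.45 to 6.52) overlapped the lowest Epcam-high tumor at 6.50, so part of its difference lies in low values of B. Cd200 showed the same, with 5.77 to 9.08 in B against 8.58 to 11.56 in Epcam-high tumors.

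The genes highest in group B relative to A were Mmp3, Cd9, Serpine2, Olfml3, Col8a1, Thy1, Nbl1, Sfrp4, Medag and Cd248. Of the 6 arrays of group A, 3 were at the floor for Cd9, Nbl1 and Cd248, 2 for Mmp3 and 1 for Serpine2 and Sfrp4. Mmp3 encodes stromelysin, a secreted protease that cuts matrix proteins. It lay between 5.31 and 6.46 in group A (median 5.63) and was 13.12 and 12.65 in series 32 and 11.20, 11.70 and 11.77 in series 34. The difference, A minus B, was -6.46 ± 0.94 on the log2 scale (88.1-fold, limma adjusted p = 5.4e-07). The 7 earlier, Epcam-high tumors of series 32 and 34 averaged 11.66, and all Epcam-high tumors lay at 6.80 to 12.74. Every array of group A lay below them.

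Cd9, a membrane tetraspanin, showed the same arrangement. It lay between 5.31 and 6.18 in group A (median 5.52), and group B had 10.97, 10.62, 10.69, 10.47 and 10.92, inside the Epcam-high range of 9.99 to 11.75. The difference was -5.07 ± 0.31 (33.6-fold, limma adjusted p = 4.01e-21), and it was -5.03 against series 34 and -5.13 against series 32. Cd9 thus stayed at an epithelial level in tumors in which Epcam, Cdh1 and the keratins were low. Serpine2, a protease inhibitor, lay between 5.31 and 7.28 in A (median 6.34) and at 11.57, 11.64, 10.25, 11.16 and 11.43 in B (31.5-fold, limma adjusted p = 6.85e-08).

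Several of these genes mark fibroblasts and pericytes. Thy1, a surface protein of fibroblasts, lay between 7.0 and 7.74 in group A (median 7.28) and was 12.54 and 12.58 in series 32 and 10.44, 10.27 and 9.50 in series 34. It was 14.9-fold higher in B (limma adjusted p = 0.000243), and series 34 minus series 32 was -2.49 on the log2 scale (limma adjusted p = 0.0141). Cd248, a marker of tumor stroma, was 12.2-fold higher in B (limma adjusted p = 0.00432, and 0.0639 without series 32). Col8a1, a short-chain collagen, was 15.1-fold higher (limma adjusted p = 0.00302, and 0.0673 without series 32). Olfml3, a secreted matrix glycoprotein, was 23.0-fold higher, the BMP antagonist gene Nbl1 14.7-fold and Medag 12.2-fold, with limma adjusted p of 0.000863 or less. Sfrp4, a secreted Wnt modulator, was 12.7-fold higher with a limma adjusted p of 0.0391, which was 0.394 without series 32, 0.0712 without transplant 5 and 0.0862 without transplant 4 of series 32. Leaving out transplant 1, 3 or 5 of series 42 also moved Sfrp4 past the threshold (0.0534, 0.0585 and 0.0584).

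**Figure D3:**
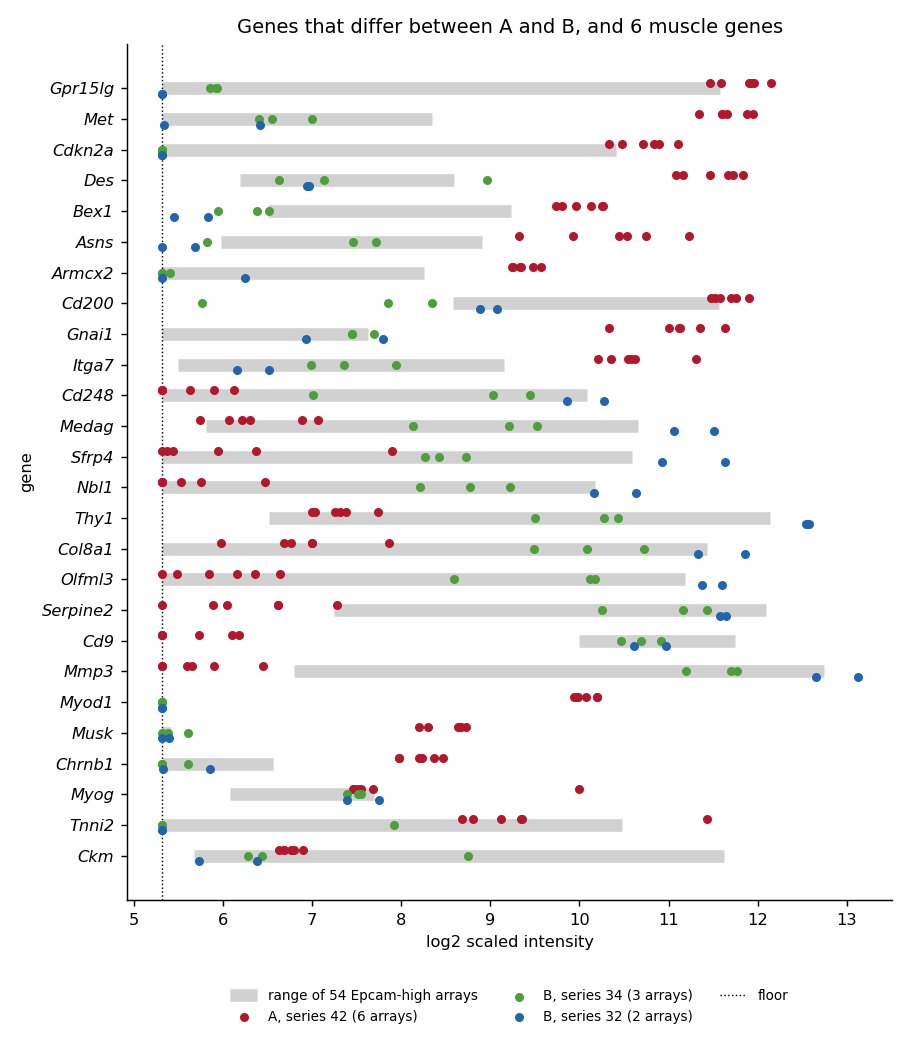
Log2 scaled intensity of the 20 genes named for the difference between A and B, followed by 6 muscle genes chosen after their values were seen. Points are single arrays, grey bars span the 54 Epcam-high arrays, and the dotted line is the floor. Met, Des, Myod1 and Musk of group A lie above every other array, while Cd9 and Mmp3 of group A lie below the Epcam-high range that holds most of group B.

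Gene lists showed where the difference between A and B lay, beside 728 genes (8.57%) higher in A, 664 (7.81%) higher in B and a median difference of 0.01 over all genes. No list was tested as a set, and the examples given beside the counts were chosen after their values were seen. Among epithelial junction genes, 0 of 13 tested were higher in A and 2 were higher in B (median difference -0.30). These were Cd9 and Jup, which encodes plakoglobin of desmosomes and adherens junctions. Jup lay between 6.25 and 7.59 in A (median 6.87) and at 8.34, 8.12, 9.51, 9.13 and 8.40 in B, 3.4-fold higher (limma adjusted p = 0.000815). Of 9 epithelial keratins, 0 were called in either direction (median -0.13). Of 4 tested epithelial transcription factors, Klf5 was higher in A by 1.51 (limma adjusted p = 0.00943, and 0.152 without series 32) and Elf3 was higher in B (difference -0.73, limma adjusted p = 0.0101, and 0.102 without series 32). Of 6 membrane proteases and inhibitors of epithelia, 1 was higher in A and 2 were higher in B (median -0.01), and without series 32 the counts were 0 and 1. The protease gene Prss22 was higher in A by 2.48 (limma adjusted p = 0.0201, and 0.0697 without series 32). Spint2, an inhibitor of membrane proteases, was higher in B (difference -2.14, limma adjusted p = 0.00029), although the highest array of A (8.30) overlapped the lowest of B (7.82).

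Of 17 EMT transcription factors listed, 11 were on the array and 9 were tested, with 0 higher in A and 2 higher in B (median -0.20). Snai1, the Snail repressor, lay between 7.14 and 7.75 in group A (median 7.43). It was 9.55, 8.72, 8.81, 9.0 and 8.86 in group B, with no overlap, a difference of -1.59 ± 0.45 (3.0-fold, limma adjusted p = 0.0104, and 0.0584 with 1 value per series). Tcf4, an E protein, was higher in B (difference -1.37, limma adjusted p = 0.0239), with p values of 0.46 without series 32, 0.0606 without transplant 4 and 0.0615 without transplant 5 of that series. Zeb1, which represses Cdh1, lay between 8.85 and 9.31 in A and between 8.91 and 9.15 in B, against 7.90 to 8.95 in Epcam-high tumors. The difference in Zeb1 was 0.13 ± 0.20 (limma adjusted p = 0.728), and Twist1 differed by -0.20 ± 0.40 (limma adjusted p = 0.796). Snai2, Snai3 and Zeb2 had no probe set of their own among the genes analysed here. Prrx1, an inducer of mesenchymal state, was left out of the tests by its low mean. It lay between 5.65 and 7.43 in A and at 9.93, 9.66, 8.59, 8.70 and 8.02 in B, and with no filter limma gave an adjusted p of 0.00314.

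Mesenchymal genes split. Of 21 tested, Des, Nes and Axl were higher in A and Thy1, Fn1, Pdgfrb, Pdgfra, Cdh11 and Sparc were higher in B (median -0.65). Vimentin (Vim), the general mesenchymal filament, did not separate the groups: it lay between 12.55 and 13.03 in A and at 12.78, 13.21, 12.70, 12.77 and 12.82 in B (limma adjusted p = 0.966). Fn1, which encodes fibronectin, lay between 8.39 and 10.38 in A (median 9.41). It was 13.05, 13.78, 12.59, 12.47 and 12.42 in B, 11.7-fold higher (limma adjusted p = 0.0112, but 0.0836 without series 32 and 0.0753 with 1 value per series). Nes, an intermediate filament of precursor cells, was 3.8-fold higher in A (limma adjusted p = 8.84e-05), and the receptor kinase gene Axl 1.8-fold higher (limma adjusted p = 0.00806, and 0.0683 without series 32).

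The receptor genes Pdgfra and Pdgfrb were 8.6-fold and 8.8-fold higher in B (limma adjusted p = 0.0182 and 0.00499, and 0.101 and 0.174 without series 32). Cdh11, a cadherin of fibroblasts and bone cells, was at the floor in all 6 arrays of A and at least 7.4-fold higher in B (limma adjusted p = 0.0128, and 0.301 without series 32). N-cadherin (Cdh2), tested only with no filter, lay between 5.31 and 5.45 in A and at 8.65, 7.22, 8.39, 8.06 and 7.03 in B (limma adjusted p = 0.000918). Without series 32, the list held 2 calls higher in A and 1 higher in B.

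Matrix genes lay almost wholly on the side of group B. Of 22 fibroblast matrix genes tested, 0 were higher in A and 6 were higher in B (Bgn, Col5a2, Mmp2, Col6a2, Col6a1 and Fap), with 21 of 22 differences negative and a median of -1.95. Col5a2, a fibrillar collagen chain, lay between 8.40 and 10.04 in A (median 9.09) and at 12.13, 12.68, 12.06, 12.17 and 11.38 in B, 7.8-fold higher (limma adjusted p = 1.44e-05). Col1a1 also did not overlap (9.50 to 11.80 in A, 12.19 to 13.20 in B), yet it was not called (difference -2.10 ± 1.08, limma adjusted p = 0.189). The list's summed intensity was 15123 to 31833 in A, 37493 to 106528 in B (87856 without transplant 5 of series 32) and 5982 to 80439 in Epcam-high tumors. Without series 32, 2 of the 22 were called and without series 34, 9. The part of stromal cells in these differences was not tested.

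Of 14 basement membrane genes tested, 8 were higher in B (Lamb1, Lamc1, Lama4, Nid2, Col4a2, Nid1, Lama3 and Col4a1) and Lamb2 was higher in A (median -1.80). Without series 32, 4 were higher in B and 1 was higher in A. Lamb1, a laminin chain, lay between 6.69 and 7.71 in A (median 7.46), at 10.73, 10.75, 10.17, 9.66 and 9.24 in B and at 8.30 to 10.74 in Epcam-high tumors (6.9-fold, limma adjusted p = 1.74e-08). Lamc1, the partner chain, was 5.8-fold higher in B (limma adjusted p = 1.03e-06). Nid2, which links laminin to collagen, set the series of B apart: it was 7.72 and 7.15 in series 32 and 11.26, 10.96 and 10.74 in series 34 (difference 3.55, limma adjusted p = 3.38e-05), with 6.75 to 7.75 in A. Its call between A and B was lost without series 34 (limma adjusted p = 0.809).

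Integrins, the receptors for matrix, were called in both directions. Among 11 integrin genes, Itga7 and Itga3 were higher in A, and Itgb5, Itgb1 and Itgb7 were higher in B (median -0.50). Without series 32, 1 was higher in A and 2 were higher in B, with the calls of Itga3 (limma adjusted p = 0.181) and Itgb7 (0.161) lost. Itgb5 lay between 7.12 and 8.44 in A and at 10.63, 11.10, 9.94, 9.64 and 9.32 in B, with no overlap (5.8-fold, limma adjusted p = 3.31e-10). Itgb1, the chain shared by most integrins, was 2.8-fold higher in B (limma adjusted p = 3.75e-05). Of 26 receptor tyrosine kinases, Met and Axl were higher in A, and Pdgfrb, Pdgfra, Ephb4, Fgfr1, Ddr2, Mertk and Ret were higher in B (median -0.09). Ephb4 was at 5.31 to 5.46 in A, 6.31 to 9.10 in B and 7.74 to 9.58 in Epcam-high tumors (limma adjusted p = 5.55e-07). Fgfr1 was 3.7-fold higher in B (limma adjusted p = 6.53e-06). Without series 32, 1 of the receptor kinases was higher in A and 4 were higher in B.

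Of 21 matrix proteases and inhibitors tested, 1 was higher in A (Ctsd) and 6 were higher in B (median -0.57), against 0 and 3 without series 32. Mmp14, a membrane protease that activates Mmp2, lay between 8.47 and 9.89 in A (median 9.13) and at 12.34, 12.62, 11.57, 11.54 and 10.94 in B, 6.8-fold higher (limma adjusted p = 3.45e-07). Plat, a plasminogen activator, was higher in B (difference -3.12 ± 0.53, limma adjusted p = 1.25e-05). Among 23 genes of the TGF-beta and BMP pathway, Fst was higher in A and 8 were higher in B, including the ligand gene Bmp7 (-2.39, limma adjusted p = 1.07e-06) and the target gene Id1 (-2.39, limma adjusted p = 0.00199, and 0.121 without series 32). Fst encodes follistatin, which binds activins, and was higher in A by 2.14 ± 0.46 (limma adjusted p = 0.000535). Without series 32, 2 genes of this pathway remained higher in B.

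Genes of cell division mostly had positive differences (15 of 16 for mitosis, 20 of 21 for DNA replication), though most were not called. Of 16 mitosis genes, 2 were higher in A and 0 in B, with a median of 0.92. Series 42 against series 32 gave 13 of 16 mitosis genes higher in series 42, and against series 34 it gave 1. Mki67, a marker of cycling cells, lay between 8.72 and 9.26 in A (median 9.04) and at 7.78 and 5.31 in series 32 and 7.35, 8.20 and 9.15 in series 34 (difference 1.51 ± 0.55, limma adjusted p = 0.049). The mitosis count was 11 without series 34, 0 without series 32 and 0 without transplant 5 of series 32, where Mki67 was at the floor. Mki67 alone gave 0.233 without that array and 0.0529 to 0.0875 without transplant 1, 2, 3, 4 or 5 of series 42 or transplant 3 of series 34. Of 21 DNA replication genes, 5 were higher in A (Rfc4, Pold1, Pola1, Mcm2 and Rpa2) and 0 in B (median 0.65), with 0 calls without series 32 and 11 without series 34. Series 42 exceeded series 32 for 14 of them and series 34 for 5.

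Of 19 oxidative phosphorylation genes, 5 were higher in A and 0 in B (median 0.44). Uqcrc1, a subunit of respiratory complex III, lay between 11.50 and 12.23 in A (median 11.94) and at 10.36, 10.32, 10.10, 10.13 and 10.36 in B, 3.1-fold higher (limma adjusted p = 3.17e-09). Sdhd, a subunit of succinate dehydrogenase, was 2.6-fold higher (limma adjusted p = 5.75e-07). Ndufa4 (1.47), Atp5po (0.55) and Atp5f1b (0.54) were the others. Ndufa4 gave a limma adjusted p of 0.141 without series 34. Atp5po (limma adjusted p = 0.0418) lost its call under 10 alternatives, with 0.39 without series 34 and 0.0514 to 0.0863 without any 1 of transplants 3 to 5 of series 34 or 2 to 5 of series 42. Atp5f1b (limma adjusted p = 0.0338) lost it under 7, with 0.247 without series 32 and 0.0535 to 0.074 without transplant 4 of series 32, 3 of series 34 or 3 or 5 of series 42. Without series 32, 4 genes of the list were called, and without series 34, 3. Of 29 genes of hypoxia and glycolysis, 1 was higher in each direction. The lactate dehydrogenase gene Ldhb was 10.9-fold higher in A (limma adjusted p = 2.15e-06).

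Markers of other cell types were read for the same arrays. Macrophage markers had 1 of 13 genes higher in A (Fcgr3a, by 1.39, limma adjusted p = 0.00299, and 0.141 without series 34), 0 higher in B and a median of 0.10. Their summed intensity was 13364 to 20698 in A and 9816 to 22553 in B, or up to 14814 in B without transplant 5 of series 32. T and NK cell markers had 0 of 10 called, and endothelial markers had 0 higher in A and 2 of 11 higher in B (Eng and Esam), both lost without series 32 (limma adjusted p = 0.251 and 0.334). Antigen presentation genes had 3 of 19 higher in A (Tap2, RT1-N3 and Tap1), with 0 called without series 32.

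The label of a mammary tumor was checked against other lineages, and some genes of skeletal muscle set series 42 apart. The skeletal muscle list as a whole did not, with 0 of 11 tested genes called between A and B. The genes of this paragraph outside the skeletal muscle list were chosen after their values were seen. Myod1, the master regulator of the skeletal muscle lineage, lay between 9.94 and 10.20 in group A (median 10.03) and was at the floor in all 5 arrays of B and all 54 Epcam-high arrays. It was at least 26.8-fold higher in A than in B. Its low mean over all arrays kept it out of the tests, and its levels are a description. Musk, the kinase that builds the neuromuscular junction, lay between 8.20 and 8.73 in A, against at most 5.61 in B and 5.42 in Epcam-high tumors. The acetylcholine receptor subunit gene Chrnb1 lay between 7.97 and 8.47 in A, at 5.31 to 5.86 in B and at 5.31 to 6.56 in Epcam-high tumors. With no filter, the subunit gene Chrng was also higher in A, and Chrne was not called (difference -0.18, limma adjusted p = 0.757). Rrad and Rtn2 were each at the floor in all of B and in 53 of 54 Epcam-high arrays, and were at least 24.9-fold and 25.7-fold higher in A. Dmpk, the myotonic dystrophy kinase gene, was 9.1-fold higher in A than in B (limma adjusted p = 6.85e-08).

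Contractile genes of the skeletal muscle list were more uneven. Of 11 tested, 0 were called (median 0.06), and 9 more were left out by their low means. With no filter, limma called Tnnc1 (adjusted p = 8.4e-05), Tnni2 (0.00242), Myl11 (0.00474), Tnnt1 (0.00833) and Tnnc2 (0.028) higher in A. Their differences were 2.93, 3.64, 4.28, 0.46 and 3.26, while Myh2, Myh4, Myh7 and Myl1 were not called. Tnni2, a fast troponin, was 11.43 in the primary tumor of series 42 and 9.35, 9.36, 8.80, 9.12 and 8.68 in its transplants. It was at the floor in 4 arrays of B and at 7.92 in transplant 5 of series 34. Myog, which acts after Myod1 in muscle differentiation, was 10.00 in the primary tumor and 7.46 to 7.68 in the transplants, where B had 7.39 to 7.75. Ckm, the creatine kinase of mature muscle, stayed at 6.63 to 6.90 in all 6 arrays of A, and was highest among members in transplant 5 of series 34 (8.76).

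Of the 59 arrays outside group A, 3 reached the lowest Tnni2 level of A. In these 3, all Epcam-high, Ckm was 9.20 to 11.62 and Myl1, another fast muscle gene, was 10.07 to 11.97, while Myod1 was at the floor and Myog was 6.98 to 7.11. In group A, Myl1 was at the floor in 5 arrays and at 5.93 in the primary tumor. The muscle signal of series 42 therefore held Myod1 without Ckm, and that of the 3 other tumors held Ckm without Myod1. The source of either signal was not tested.

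Counted over all 10410 genes besides Epcam, group A lay above all 59 other arrays for 270 genes, 23 of them by more than 2-fold, and below all of them for 157 genes, 7 by more than 2-fold. Group B lay above all others for 10 genes and below for 7, with 0 by more than 2-fold. Group B joins 2 lines, so a gene has to agree in both to count. The arrays set against B also held 7 earlier, Epcam-high tumors of its own lines, and those set against A held 0 of its own. A level that marks a line throughout its passage can therefore set A apart but not B. The counts of A and B thus do not show which group was more distinct. The 23 genes, described as chosen by this pattern, were Myod1, Rrad, Rtn2, Met, Musk, Gnai1, Des, Ankib1, Gatad1, Gal, Smarcd3, Kcnk13, Krit1, Chrnb1, Dmpk, Fitm1, Purb, Klhl41, Slc25a13, Ndufaf3, Itga7, Eno3 and Capza2. The 7 genes below all other arrays by more than 2-fold were Cd9, F3, Kctd15, Serinc5, Amotl1, Igsf3 and Serinc2. F3, which encodes tissue factor, was at the floor in all of A, 6.97 to 8.43 in B and 7.13 to 11.90 in Epcam-high tumors, and was at least 6.2-fold higher in B (limma adjusted p = 0.00681). This call was lost with the floor at the 25th percentile. Of the 10 genes of B, Cercam had the widest gap: it was 8.12, 8.17, 8.65, 8.25 and 8.03 in B, 6.56 to 7.24 in A and at most 7.43 elsewhere (limma adjusted p = 0.00479).

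Several of these genes are neighbours. The gene order of the GRCr8 annotation was used, after the values were seen, to place 8477 of the tested genes. On chromosome 8, 117 of 487 genes (24.0%) were higher in A, and on chromosome 4, 78 of 491 (15.9%), against 2.92% to 10.7% on the other chromosomes and 8.57% in all. Genes higher in B made up 5.34% on chromosome 8 and 7.54% on chromosome 4. In runs of 20 neighbouring genes, 8077 in all, the median difference lay between -0.23 and 0.27 for the middle 90%, 42 runs exceeded 1 and 0 fell below -1.

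The highest run ran from Slc25a13 to Capza2 on chromosome 4 and held Asns, Ndufa4, Cav1, Cav2 and Met among others, with 15 of 20 genes higher in A, 0 higher in B and a median of 1.44. Against Epcam-high tumors, the median of this run was 1.58 in A and -0.07 in B. A second run on chromosome 4, from Fgl2 to Vps50, held Gnai1, Krit1, Ankib1 and Gatad1 and had a median of 1.32, with 13 genes higher in A and 2 higher in B. On chromosome 8 the highest run, Amigo3 to Uqcrc1, had a median of 1.04 and 13 genes higher in A, including Rhoa, Lamb2, Ndufaf3 and Uqcrc1. The lowest run of all, Prkag2 to Armc10, also lay on chromosome 4 (median -0.61, 11 of 20 higher in B). DNA copy number was not measured here.

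**Figure D4:**
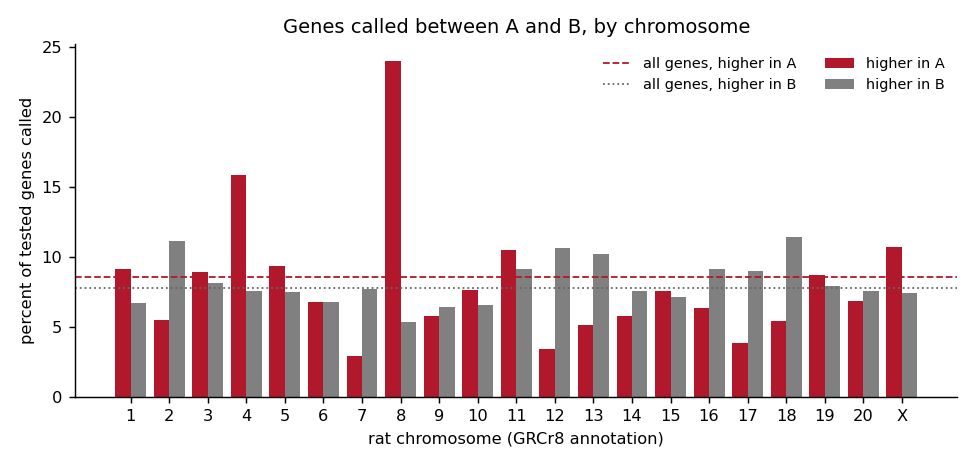
Percent of tested genes called between A and B on each chromosome of the GRCr8 annotation, split by direction, with the shares over all genes as horizontal lines (8.57% higher in A, 7.81% higher in B). Chromosome 8 (24.0%) and chromosome 4 (15.9%) stand above the line for genes higher in A, and the shares higher in B vary less.

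Groups A and B can be set beside the difference between the lines of B. Fitted on the member arrays of each series, limma called 2195 genes (25.8%) between series 42 and series 34, 3687 (43.4%) between series 42 and series 32, and 1900 (22.4%) between series 34 and series 32. The median absolute difference was 0.25, 0.42 and 0.33, and 614, 1362 and 812 genes differed by at least 2-fold in their means. Calls of at least 2-fold made up 563 (6.63%), 1310 (15.4%) and 644 (7.58%). Each pair shares arrays with the next, and the p-values cover tumors within a line, with 6, 3 and 2 arrays. By median difference, series 34 lay nearer to series 42 than to series 32, and transplant 5 of series 32, which stands apart in intensity, enters both distances of series 32. The correlation across genes of values centred over all arrays averaged 0.51 between series 42 and members of series 34 (18 pairs), 0.23 between series 42 and members of series 32 (12 pairs) and 0.45 between members of series 34 and 32 (6 pairs). It averaged 0.90 within series 42 (15 pairs). Tumors of the other 8 series averaged -0.50 to 0.32 with series 42, and transplant 5 of series 36, an Epcam-high tumor, was the highest. Genes are not independent, and these values are a description.

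The distance of single tumors from the mean of series 42 moved with Epcam in series 34. Its median absolute difference was 0.36, 0.37 and 0.35 in the primary tumor and transplants 1 and 2, and 0.32, 0.30 and 0.25 at transplants 3, 4 and 5. Series 32 had 0.45, 0.44, 0.40 and 0.37 up to transplant 3, then 0.40 and 0.55. Tumors of the other 8 series lay at 0.31 to 0.48. Only transplants 4 and 5 of series 34 lay nearer to series 42 than every tumor of those 8 series. The tumors of series 42 themselves lay at 0.11 to 0.19, each set against the mean of the other tumors of that series.

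**Figure D5:**
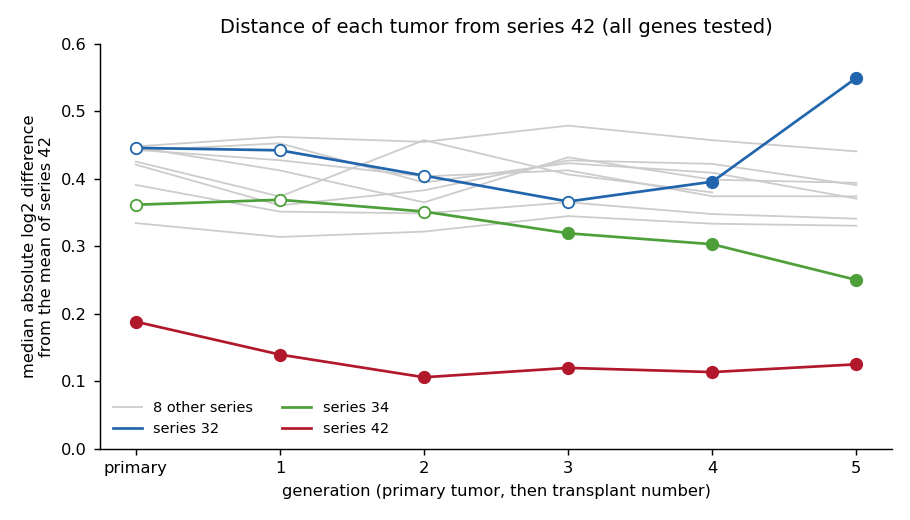
Median absolute log2 difference of each tumor from the mean of series 42 over 8498 genes, by generation. Filled points are tumors below the Epcam threshold and open points the earlier tumors of series 32 and 34. Series 34 comes down to 0.25 at transplant 5, and series 32 rises to 0.55.

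The tumor just outside the threshold, transplant 3 of series 32, resembled group B in mesenchymal genes while Epcam was still at 9.17. It had Fn1 at 13.14, Thy1 at 12.14, Cdh2 at 8.28, Prrx1 at 9.77 and Vim at 12.79, each inside the range of group B. Its Cdh1 was 7.85, below every other Epcam-high tumor, and its Krt14 was 6.97, against 9.38 to 9.99 in the earlier tumors of that line. In series 34, transplant 2, the last tumor before Epcam fell below 8, had Fn1 at 10.67, Thy1 at 8.09, Cdh2 at 5.33 and Cdh1 at 10.58. These single tumors have no replicate and were not tested.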

How the data were processed

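Total RNA of frozen tumors (6 µg each) was hybridised to Affymetrix arrays, per the labels' protocols. The deposited values are linear intensities, as the authors provided them in the series matrix (1 to 12011). The method of summarising and normalizing probe sets: not given in the sources used here. Each of 65 arrays was scaled to a median intensity of 162 over 15866 probe sets, without 57 controls. The 10th percentile (intensity 39.8) served as a floor before the log2 step. Probe sets with 1 gene symbol (12783) were kept, and those with several (312) or none (2771) were not. Each of 10411 genes was read by its probe set with the highest mean log2 level. Genes whose mean log2 lay in the lowest 25% (under 6.35) were not tested, which left 8498 besides Epcam.

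limma 3.58.1 (R 4.3.3) was fitted to all 65 arrays with the classes A, B, earlier tumors of series 32 and 34, and all others, and with series as a random block (consensus correlation 0.247). Calls have a Benjamini-Hochberg adjusted p below 0.05 over all genes tested. Pairs of series were fitted without the block. The fit was tested on simulated data. Arrays of a series are tumors of 1 line, so p-values rest partly on the spread within lines. Named genes were the 10 called genes with the largest difference in each direction whose arrays did not overlap, up to 10 genes low and high in both groups by the widest gap, and up to 4 called genes per list by size. Other genes were named after their values were seen. The members and the gene lists were chosen with earlier results of these data known. Gene IDs were matched to RefSeq (GRCr8) for 12748 probe sets, for names, neighbours and promoters only.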

Additional observations from a re-analysis of the deposited data

Results flagged for a closer look

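In 82 groups of 4 to 10 arrays checked for a lone extreme value, 9 had one, and chance gives about 1 in 20 groups. That rate does not hold where the other arrays sit at the floor, as for S100a14 and Krt18, so the counts cannot be compared. Transplant 5 of series 32 had a median intensity before scaling of 96.1, far from the other arrays of group B. Transplant 5 of series 34 had the highest Des (8.96), Krt8 (6.16) and Krt18 (5.50) of group B, each set off from the other 4 arrays. Transplant 4 of series 32, the member nearest to the Epcam threshold, had the highest Cdh1 (6.86) and Armcx2 (6.25) of group B. In group A, transplant 2 had the highest Cdh1 (5.51) and Gpx2 (5.51), and the primary tumor the highest S100a14 (5.32), all next to the floor.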

How the results depend on the processing

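Between A and B, 1392 genes were called, and counts stayed within 1.5 times of that under other thresholds, floors, filters, scalings and with generation as a factor (1096 to 1608). With no replicate block, so that tumors of a series count as independent, 2710 genes were called (1420 higher in A, 1290 higher in B). With 1 value per series there were 638 (328 and 310), with the member arrays only 2430 (1254 and 1176), and with array weights 2481 (1355 and 1126). Leaving out a series or an array gave 629 (without series 32) to 2002 (without series 34), with 339 to 977 higher in A and 290 to 1025 higher in B. The share of calls that were higher in A was 52.3%, but 59.2% after quantile normalization and 62.6% with no scaling. Tpm1 turned to 0.54 with the median of its probe sets. Nrg1 ranged from -3.45 without series 34 to 0.046 without series 32. Of 143 genes named or listed and called, 62 kept the call under each of the 27 alternatives in which they were tested. Of 3824 values, 294 lost the call. The filter at the median left some named genes untested, Met, Gnai1 and Itga7 among them, and these do not count as lost. The causes were not tested. 1 line stands for group A and 2 lines for group B, floor values cannot be ranked, and dim genes are limited by their signal over background.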
